A study of Mus musculus with 12 samples.

Results

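The comparison described here set NRF2-overexpressing KP1 cells against empty-vector KP1 cells while both were under romidepsin. KP1 cells are a mouse line, labelled as lung adenocarcinoma. The libraries were chosen by their titles: the 3 NRF2 libraries and the 3 empty-vector (EV) libraries treated with romidepsin, 6 of the 12 libraries of the series, described across all 13502 genes that passed the filter on low counts. The other 6 libraries, 3 of each line treated with DMSO, the solvent, are used to show where the NRF2 effect differed without the drug.

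Both groups were KP1 cells grown in DMEM with serum and antibiotics, moved to RPMI in 6-well plates, and given 5 nM romidepsin on the next day for 16 h. They differed in the introduced construct, given in the labels as an empty vector or as NRF2 overexpression. The promoter, the species of the NRF2 sequence and the number of transductions are not given in the sources used here. RNA was extracted with Trizol, enriched for poly-A transcripts and made into libraries with TruSeq chemistry. The series design calls the 3 libraries of a group biological replicates. Nothing says that they came from separate transductions. The p-values given here therefore set the difference between the 2 lines against the spread between cultures, estimated over all 12 libraries. They do not cover the spread between transductions.

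NRF2, encoded by Nfe2l2, is a transcription factor that the adaptor KEAP1 normally marks for proteasomal degradation. When it escapes, it pairs with small MAF proteins on antioxidant response elements and raises genes for glutathione synthesis, thioredoxin-dependent repair, conjugation of foreign compounds, haem breakdown and NADPH supply. KEAP1 loss or NRF2 activation is frequent in lung adenocarcinoma. Romidepsin inhibits class I histone deacetylases, which remove acetyl groups from histones at many promoters and enhancers.

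The 6 romidepsin libraries held 16842824 to 27328236 estimated counts, with 17751 to 18567 genes detected, 6.67 to 7.15% of counts in the 10 largest genes and 5.82 to 6.35% in mitochondrially encoded genes, ranges in which the lines overlapped. A level of 3 counts in 1 library was 0.105 to 0.171 CPM, the scaled count unit used throughout. No pair of replicates agreed within counting noise, with chi-square per degree of freedom of 2.41 to 6.81. On the first principal component, 76.9% of the variance, NRF2 libraries lay at 20.3 to 21.7 and EV libraries at -22.01 to -19.7. Among the DMSO libraries, replicate 3 of NRF2 cells stood apart, with 7.30% of counts in mitochondrial genes and a distance from its replicates of 0.304 log2 units against 0.138 to 0.193 in the other 11 libraries.

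The labelled cell type was checked against markers. The alveolar list summed to 391 to 398 CPM in EV and 285 to 295 CPM in NRF2 libraries, nearly all from Cav1, Aqp5, Abca3 and Etv5. The surfactant genes Sftpc, Sftpb, Sftpa1 and Sftpd and the lung lineage factor Nkx2-1 each averaged under 0.2 CPM, and Sftpa1, Lamp3 and Pdpn had no count. Endodermal and gut genes summed to 82.6 to 89.1 CPM in EV and 81.8 to 82.6 CPM in NRF2 libraries. Nearly all of this came from Foxa1, Foxa2, Sox2, Cdx2, Pdx1 and Hnf4a. The gut genes Gkn2 and Tff3 had no count, and Gkn1 and Tff1 were near 0. Vil1 averaged 0.285 CPM in EV and 0.681 CPM in NRF2 libraries. The similar sums hid opposite moves, as mean Hnf4a was higher and mean Sox2 lower in NRF2 libraries. The immune list was higher in NRF2 libraries, 71.9 to 76.5 against 52.2 to 57.1 CPM, carried by the lysosomal protein gene Cd68, whereas Cd3e and Adgre1 were at or near 0 and Ptprc averaged under 0.6 CPM. Fibroblast markers summed to 15.6 to 18.1 CPM in NRF2 and 12.7 to 13.3 CPM in EV libraries, and endothelial markers to 7.35 to 9.26 and 6.58 to 8.78 CPM. The erythroid list, 17.4 to 21.2 against 9.38 to 12.9 CPM, came from Hba-a1 and Hba-a2, with the beta-globin genes at or near 0 and Alas2 at 0. In bulk RNA, fewer cells of a type and less RNA per cell cannot be told apart.

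Under romidepsin, NRF2 cells expressed the antioxidant and detoxification genes more highly and the genes of DNA replication, mitosis and nucleotide synthesis at lower levels than EV cells. The quasi-likelihood test of edgeR, with Benjamini-Hochberg adjustment over all genes and a threshold of 0.05 that applies to every adjusted p below, called 3107 genes higher (23.0% of those tested) and 3026 lower (22.4%), together 45.4%. The changes were mostly small, with a median of 1.32-fold among genes that rose and 1.27-fold among those that fell. Of the genes that rose, 2053 did so by less than 1.5-fold, 500 by 1.5- to 2-fold, 463 by 2- to 4-fold and 91 by 4-fold or more. Of those that fell, 2455 did so by less than 1.5-fold, 372 by 1.5- to 2-fold, 146 by 2- to 4-fold and 53 by 4-fold or more. Large changes were thus more often rises: 554 genes (4.10%) rose and 199 (1.47%) fell at least 2-fold. The NRF2 libraries all lay above the EV libraries in 4155 genes (30.8%) and all below them in 4105 (30.4%). Gene lists below are read against these shares and against a median log2 fold change of -0.0028 over all genes tested.

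**Figure D1:**
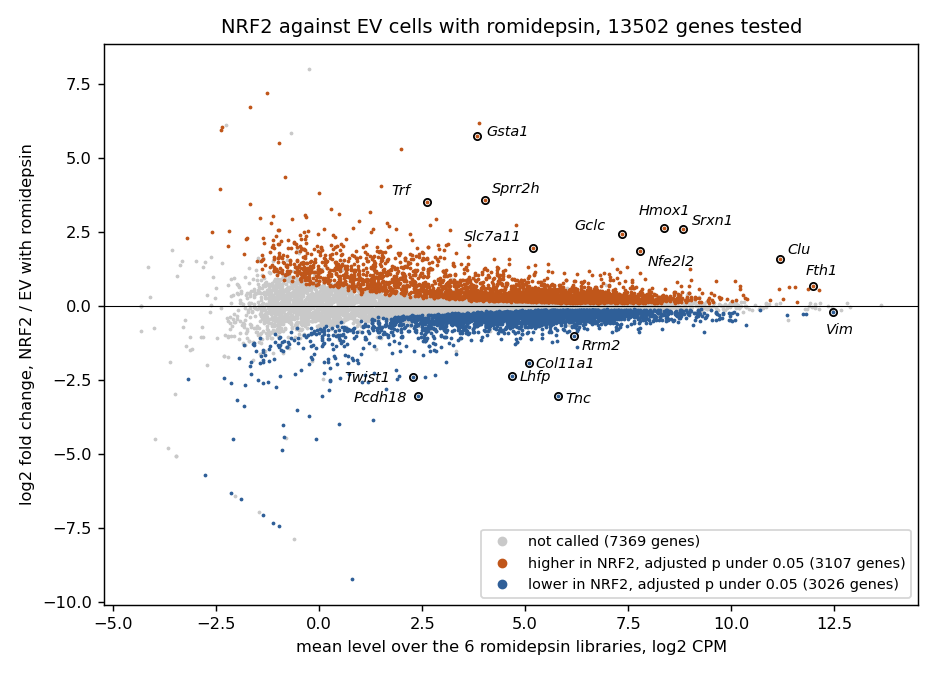
Log2 fold change of NRF2 over EV cells with romidepsin (vertical axis) against the mean level over the 6 romidepsin libraries (horizontal axis, log2 CPM), 1 point per gene tested. The 3107 genes called higher and 3026 called lower fill both sides of 0, and the antioxidant genes Srxn1, Hmox1 and Gclc stand apart among abundant genes on the upper side as Tnc does on the lower. Fold changes of the genes at the far left rest on few counts.

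**Figure D2:**
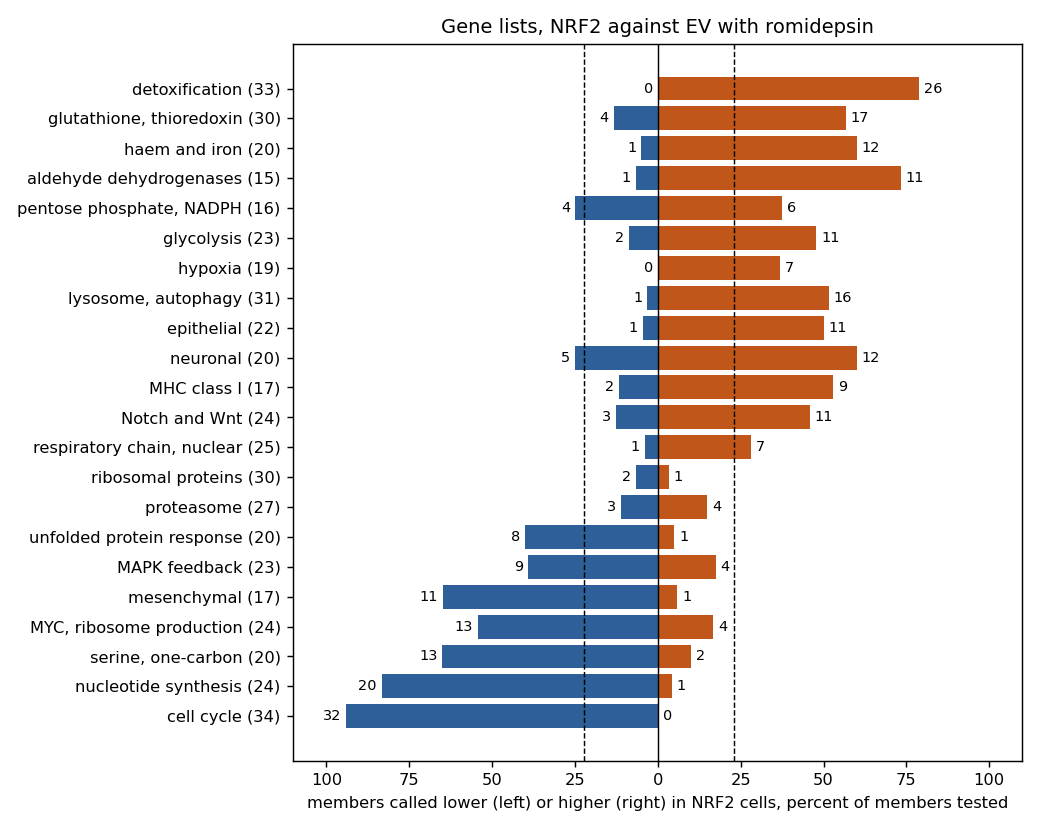
Share of the members of 22 gene lists called higher (right, orange) or lower (left, blue) in NRF2 cells with romidepsin, in percent of members tested; the number tested stands after each name and the number called at each bar. Dashed lines mark the shares over all genes, 23.0% higher and 22.4% lower; detoxification reached 26 of 33 on the right and the cell cycle 32 of 34 on the left.

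Nfe2l2 itself (ENSMUSG00000015839.6, GRCm38 chr2:75675513-75704641) measured 93.3, 99.0 and 96.7 CPM in the EV and 339, 343 and 365 CPM in the NRF2 libraries. All 3 NRF2 libraries stood well above all 3 EV libraries, a 3.62-fold difference (log2 fold change 1.86 ± 0.07, SE, adjusted p = 2.8e-11), so the libraries matched their labels. Counts from the cells' own gene and from the construct cannot be told apart. Keap1, which encodes the NRF2 repressor, read 35.1, 30.9 and 32.9 CPM in EV and 35.0, 36 and 36.2 CPM in NRF2 libraries. Its groups overlapped and it did not pass (log2 0.12 ± 0.05, adjusted p = 0.093), although leaving out replicate 1 of EV with romidepsin brought the adjusted p to 0.038. The autophagy receptor gene Sqstm1, whose product p62 sequesters KEAP1, measured 359, 361 and 380.1 CPM in EV and 634, 635 and 748 CPM in NRF2 libraries. Replicate 3 of the NRF2 group was the highest, and the 1.83-fold rise had an adjusted p of 1.7e-08. Of the 14 regulators and partners of NRF2, 3 were called higher and 1 lower. The 1 lower was the related factor gene Nfe2l1 (log2 -0.10 ± 0.04, adjusted p = 0.046), and this call was lost when any 1 of the 6 romidepsin libraries, or replicate 2 or 3 of EV with DMSO, was left out.

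Glutathione and thioredoxin genes were more often higher than lower in NRF2 cells. Of 30 tested, 17 were higher and 4 lower, with a median log2 fold change of 0.32, and 5 rose at least 2-fold. Without replicate 3 of NRF2 with DMSO, 7 were lower. Srxn1 (chr2:152105516-152111376) encodes sulfiredoxin, which restores overoxidised peroxiredoxins. It measured 133, 123 and 129.8 CPM in EV and 779.7, 773 and 803 CPM in NRF2 libraries. The 2 groups were narrow and far apart, 6.10-fold (log2 2.61 ± 0.05, adjusted p = 1.1e-16). Gclc (chr9:77754535-77794485), the catalytic subunit of the enzyme that limits glutathione synthesis, stood at 51.6, 49.98 and 50.1 CPM in EV and 269, 268 and 288 CPM in NRF2 libraries. No library of either group came near the other, and the difference was 5.44-fold (log2 2.44 ± 0.05, adjusted p = 2.3e-15). Slc7a11, the exchanger that imports cystine for glutathione, gave 13.9, 16.6 and 13.5 CPM in EV and 57.4, 53.8 and 62.1 CPM in NRF2 libraries. These were low levels beside those with DMSO, where EV libraries held 144, 135 and 136 CPM, and the 3.92-fold excess in NRF2 cells (log2 1.97 ± 0.07, adjusted p = 2.9e-12) left all 3 below the DMSO libraries of either line. Oplah, which returns 5-oxoproline to glutamate within the glutathione cycle, rose from 5.55, 4.37 and 4.48 to 18.3, 22.2 and 19.5 CPM (4.18-fold, adjusted p = 1.3e-09). Ggt7, a member of the gamma-glutamyltransferase family, rose 2.199-fold (adjusted p = 1.6e-06). Against the majority, Prdx6, a peroxiredoxin that uses glutathione, fell from 98.5, 102 and 105 to 75.2, 74.8 and 71.5 CPM (log2 -0.46 ± 0.07, adjusted p = 3.4e-05).

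**Figure D3:**
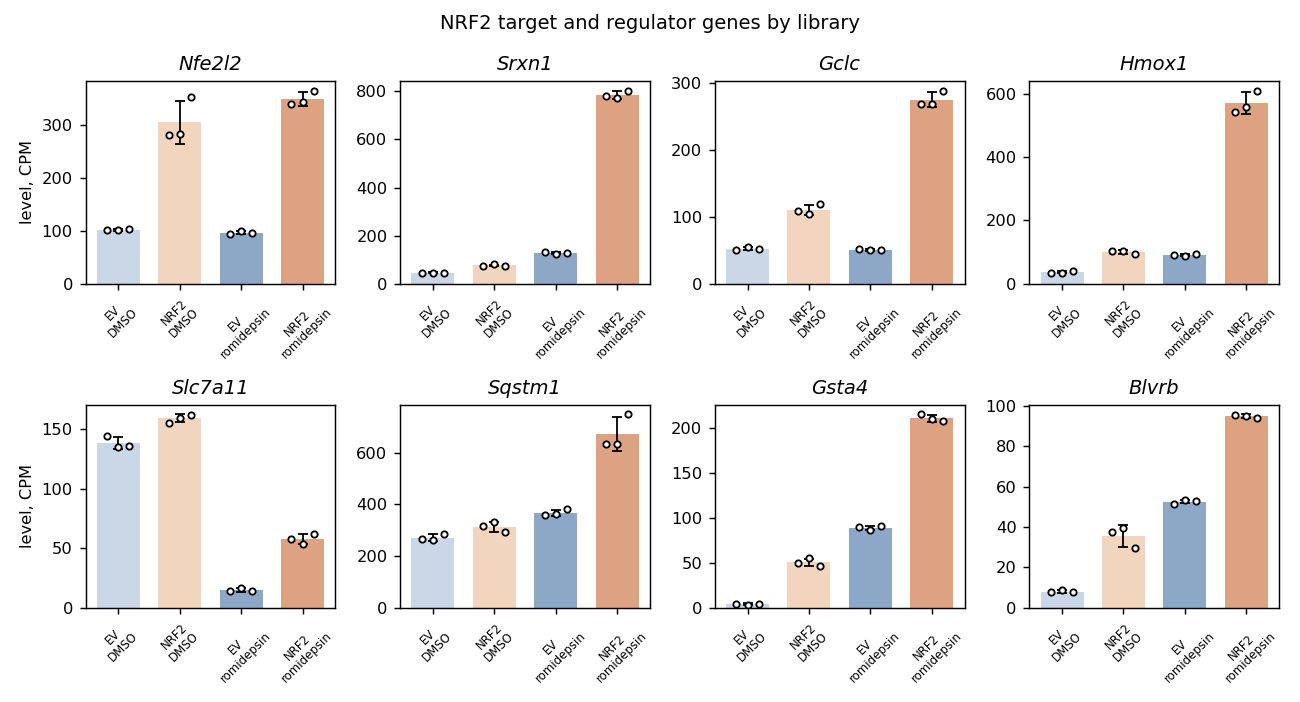
Level of 8 genes in CPM (vertical axes, each from 0) in the 4 groups of 3 libraries; bars are means, error bars the SD over 3 libraries and points the libraries. With romidepsin the 3 NRF2 libraries lay above the 3 EV libraries for each of the 8; Slc7a11 was lower with romidepsin than with DMSO in both lines.

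Promoters were searched for the core of the antioxidant response element, TGACNNNGC, on both strands of the windows from 250 bases before to 50 bases after each annotated start (RefSeq, GRCm38.p6). The core overlaps the AP-1 site TGACTCA where its free bases spell it. It occurred in 1861 of 13160 windows of the genes tested (14.1%; 10308 genes had a window), in 12.6% of windows of genes that rose at least 2-fold and in 11.7% of those that fell at least 2-fold. It was in 15.4% of windows of all genes called higher and 13.4% of those called lower. Among glutathione and thioredoxin genes 9 of 39 windows held it (23.1%), among detoxification genes 11.4% and among haem and iron genes 11.5%. Genes with several starts have several windows. By gene these 3 lists had 25.9% (7 of 27), 13.3% and 21.4%, beside 16.7% of all genes tested that had a window. The windows below carry it in capitals with 30 bases on each side, written 5′ to 3′ in the direction of the gene; they show 5 genes that rose and 1 that fell, and Gclm, Prdx1, Txnrd1 and Mgst1 were chosen after their values were seen. The core also lies in windows of genes called in neither direction, Blvra, Gstm5, Hpx and Sod1 among them, and nothing is read from the set shown. The genes are on the plus strand except Rps6ka6, on the minus strand. The core lies on the strand of the gene in Gsta3 and on the opposite strand in the other 5, and in Prdx1 its free bases spell the AP-1 site. The positions are chr3:122245393-122245461 for Gclm, chr4:116685436-116685504 for Prdx1, chr10:82859084-82859152 for Txnrd1, chr6:138140441-138140509 for Mgst1, chr1:21240434-21240502 for Gsta3 and chrX:111463623-111463691 for Rps6ka6.
Gclm: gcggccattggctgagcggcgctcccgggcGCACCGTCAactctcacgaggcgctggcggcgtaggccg
Prdx1: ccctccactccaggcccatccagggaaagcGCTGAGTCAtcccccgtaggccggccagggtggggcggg
Txnrd1: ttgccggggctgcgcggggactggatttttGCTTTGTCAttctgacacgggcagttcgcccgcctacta
Mgst1: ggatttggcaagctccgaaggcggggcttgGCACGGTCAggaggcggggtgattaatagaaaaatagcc
Gsta3: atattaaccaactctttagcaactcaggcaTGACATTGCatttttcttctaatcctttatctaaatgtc
Rps6ka6: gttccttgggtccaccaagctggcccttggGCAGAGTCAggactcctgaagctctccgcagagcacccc

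The genes behind these windows differed in level and in the size of the change. Gclm, the modifier subunit that pairs with GCLC, measured 97.4, 97.2 and 90.1 CPM in EV and 177, 168 and 177 CPM in NRF2 libraries (1.83-fold, adjusted p = 8.7e-10). Prdx1, an abundant peroxide-reducing peroxiredoxin, held 901, 919 and 916 CPM in EV and 1539, 1465 and 1429 CPM in NRF2 libraries (1.62-fold, adjusted p = 2.9e-07). The groups were separate for both genes. Txnrd1, cytosolic thioredoxin reductase, went from 291, 298 and 294 to 519, 517 and 538 CPM (1.78-fold, adjusted p = 7.0e-11). Mgst1, a microsomal glutathione transferase, was scarce, at 1.42, 2.03 and 1.27 CPM in EV and 5.24, 4.01 and 4.73 CPM in NRF2 libraries (2.92-fold, adjusted p = 2.5e-06). Rps6ka6, which encodes the kinase RSK4, holds the same core and lay among the strongest falls, from 10.2, 10.01 and 9.77 to 2.01, 1.97 and 1.71 CPM (log2 -2.38 ± 0.11, adjusted p = 5.5e-11). A match of letters is a description of the window and not a measured binding site.

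Detoxification enzymes had the highest share of rises among the lists of 10 or more genes. Of 33 conjugating, quinone-reducing and carbonyl-reducing enzymes tested, 26 were higher, 15 of them by at least 2-fold, with a median log2 fold change of 0.91. The quasi-likelihood test of edgeR called 0 lower, as did DESeq2 and limma-voom, and 0 were lower at an unadjusted p under 0.05. By library, their summed level was 2446 to 2539 CPM in EV and 3255 to 3346 CPM in NRF2 cells. The alpha-class glutathione transferases, which conjugate lipid peroxidation products, held the extremes. Gsta1 (chr9:78230656-78242684) measured 0.933, 0.315 and 0.330 CPM in EV and 30.6, 24.3 and 29.4 CPM in NRF2 libraries. It was nearly silent in EV cells, so its log2 fold change of 5.74 ± 0.29 (adjusted p = 3.3e-08) depended on few EV counts and became 6.41 without replicate 1 of EV with romidepsin. Gsta2 behaved alike, with 0.147, 0.0901 and 0.330 CPM in EV and 8.18, 8.26 and 6.84 CPM in NRF2 libraries (log2 5.33 ± 0.27, adjusted p = 9.9e-10; 5.98 without replicate 3 of EV with romidepsin). Gsta3 reached 2.71, 2.36 and 2.396 CPM in NRF2 against 0.295, 0.270 and 0.283 CPM in EV libraries (8.64-fold, adjusted p = 4.0e-08). Gsta1, Gsta2 and Gsta3 are close in sequence, so the division of reads between them is uncertain. Gsta4, specialised for the lipid aldehyde hydroxynonenal, was well expressed in both lines, at 89.6, 85.9 and 90.2 CPM in EV and 215, 209.7 and 208 CPM in NRF2 libraries (2.38-fold, adjusted p = 5.0e-10). Cbr3, a carbonyl reductase, rose from 0.688, 0.946 and 0.944 to 5.38, 5.62 and 5.87 CPM (6.48-fold, adjusted p = 8.7e-09).

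Of 20 haem and iron genes 12 were higher and 1 lower (median log2 fold change 0.39). Hmox1, haem oxygenase 1, measured 90.6, 86.5 and 93.0 CPM in EV and 541, 558 and 609 CPM in NRF2 libraries. The 6.32-fold difference (log2 2.66 ± 0.07, adjusted p = 1.5e-13) was the largest in this list. Blvrb, which encodes biliverdin reductase B, stood at 51.6, 53.1 and 52.7 CPM in EV and 95.8, 95.1 and 94.1 CPM in NRF2 libraries (1.81-fold, adjusted p = 1.4e-07). Blvra, the gene of biliverdin reductase A, was not called (log2 fold change 0.069). Genes of iron storage and export rose as Hmox1 did. The ferritin heavy chain gene Fth1 held 3162, 3024 and 3209 CPM in EV and 5121, 5011 and 5019 CPM in NRF2 libraries (1.61-fold, adjusted p = 6.4e-08). The ferritin light chain gene Ftl1 held 3561, 3557 and 3778 and 5293, 5340.4 and 5277 CPM (1.46-fold, adjusted p = 2.5e-06). These were the 2 most abundant genes of all that rose. Slc40a1, the iron exporter ferroportin, went from 2.85, 3.02 and 2.64 to 8.79, 7.84 and 8.44 CPM (2.93-fold, adjusted p = 1.5e-07). Tfrc, the transferrin receptor that imports iron, was the member that fell, from 181, 181 and 168 to 122, 118 and 116 CPM (log2 -0.57 ± 0.04, adjusted p = 3.4e-08). Outside this list, Trf, which encodes the iron carrier transferrin, rose from 1.38, 0.586 and 1.04 to 11.5, 11.9 and 10.6 CPM (11.4-fold, adjusted p = 3.4e-06). Ncoa4, the receptor that delivers ferritin to autophagy, rose 1.54-fold (adjusted p = 4.1e-08), and Gch1, which makes the antioxidant cofactor tetrahydrobiopterin, 1.67-fold (adjusted p = 8.2e-06).

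Among aldehyde dehydrogenases, 11 of 15 were higher and 1 lower (median log2 fold change 0.37). Aldh3a1, which oxidises lipid aldehydes, measured 21.6, 19.4 and 21.4 CPM in EV and 58.7, 54.1 and 50.9 CPM in NRF2 libraries (2.63-fold, adjusted p = 1.9e-10). Aldh7a1 rose 1.63-fold (adjusted p = 5.1e-09), and Aldh18a1, which makes proline precursors, fell (log2 -0.26 ± 0.06, adjusted p = 0.0012). Drug and conjugate exporters were split, 5 of 12 higher and 4 lower (3 higher without replicate 1 of NRF2 with romidepsin). Abcc2 rose from 0.295, 0.225 and 0.189 to 1.496, 1.30 and 1.48 CPM (adjusted p = 1.4e-05), Abcc3 3.01-fold (adjusted p = 1.9e-07) and Abcc4 1.46-fold (adjusted p = 1.8e-07), all conjugate exporters. The multidrug transporter genes Abcb1a and Abcb1b fell instead, whereas Abcb4 was called higher. The Abcb4 call was lost without replicate 2 of EV (log2 0.48) or replicate 1 of NRF2 with romidepsin (log2 0.45). Abcb1b, at 60.0, 62.0 and 61.2 CPM in EV and 43.6, 43.3 and 39.2 CPM in NRF2 libraries, had no overlap between groups (log2 -0.53 ± 0.06, adjusted p = 1.3e-06). Of 16 genes of the pentose phosphate pathway and NADPH supply, 6 were higher and 4 lower. Pgd, which yields NADPH in the oxidative branch, measured 267, 266 and 272 CPM in EV and 392, 402 and 418 CPM in NRF2 libraries (1.504-fold, adjusted p = 1.5e-08). Me1, malic enzyme, rose 1.59-fold (adjusted p = 6.5e-09) and the transketolase gene Tkt 1.30-fold (adjusted p = 4.4e-05), while Rpia, ribose phosphate isomerase, fell (log2 -0.40 ± 0.09, adjusted p = 0.0013).

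Serine, glycine and folate genes went the other way: 13 of 20 were lower and 2 higher, with a median log2 fold change of -0.32. The serine hydroxymethyltransferase genes, which pass a carbon from serine to folate, both fell, Shmt2 from 139, 141 and 137 to 89.2, 94.2 and 89.4 CPM (log2 -0.61 ± 0.05, adjusted p = 9.3e-08) and Shmt1 by a log2 fold change of -0.66 ± 0.06 (adjusted p = 4.1e-07). Aldh1l2, which oxidises mitochondrial formyl folate, was 1 of the 2 members that rose (log2 0.37 ± 0.10, adjusted p = 0.0081); most single libraries, when left out, lowered that count to 1.

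Nucleotide synthesis genes were lower in 20 of 24 cases and higher in 1, with a median log2 fold change of -0.29. Rrm2, the S-phase subunit of ribonucleotide reductase, measured 97.6, 103 and 90.6 CPM in EV and 52.0, 49.4 and 45.2 CPM in NRF2 libraries, the largest fall of the list (log2 -0.99 ± 0.07, adjusted p = 4.8e-09). Its partner subunit gene Rrm1 measured 146, 154 and 147 CPM in EV and 104, 96.2 and 92.9 CPM in NRF2 libraries (log2 -0.61 ± 0.05, adjusted p = 9.2e-08). Salvage of deoxynucleosides was also lower. The thymidine kinase gene Tk1 fell from 45.5, 46.0 and 47.3 to 31.1, 31.0 and 27.5 CPM (log2 -0.63 ± 0.07, adjusted p = 3.6e-06), and the deoxycytidine kinase gene Dck from 37.6, 40.9 and 37.3 to 25.2, 26.7 and 26.7 CPM (log2 -0.56 ± 0.06, adjusted p = 1.1e-06). The 1 member called higher was Impdh1 (log2 0.15 ± 0.05, adjusted p = 0.027), and that call was lost whenever a romidepsin library other than replicate 3 of EV was left out.

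The cell cycle list had the highest share of calls in 1 direction among the lists of 10 or more genes. Of 34 genes of replication licensing, DNA synthesis and mitosis, 32 were lower in edgeR's test, and the NRF2 libraries all lay below the EV libraries for 33. It called 0 higher, as did DESeq2 and limma-voom, and 0 were higher at an unadjusted p under 0.05. Log2 fold changes ran from -0.82 to -0.11 with a median of -0.53, and none fell 2-fold. By library, the 34 genes summed to 3062 to 3235 CPM in EV and 2159 to 2222 CPM in NRF2 cells. Top2a, the topoisomerase that untangles replicated DNA, measured 413, 414 and 384 CPM in EV and 234, 236 and 238 CPM in NRF2 libraries. The groups were 1.71-fold apart (log2 -0.77 ± 0.05, adjusted p = 5.5e-09). Mcm3, part of the replicative helicase, stood at 78.1, 80.0 and 75.4 CPM in EV and 45.4, 45.9 and 41.8 CPM in NRF2 libraries (log2 -0.81 ± 0.06, adjusted p = 6.7e-09). Cdk1, the kinase of mitotic entry, stood at 100.04, 98.3 and 93.1 and 58.8, 59.6 and 54.6 CPM (log2 -0.75 ± 0.06, adjusted p = 8.7e-08). Ccne2, a cyclin of the entry into S phase, fell from 20.7, 21.4 and 19.4 to 13.1, 11.1 and 10.6 CPM (log2 -0.82 ± 0.09, adjusted p = 2.0e-06).

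With DMSO the same list was divided, 5 members higher and 6 lower in NRF2 cells (19.3% and 16.9% of all genes), with a median log2 fold change of -0.05. The test of the difference between the NRF2 effects with romidepsin and with DMSO called 31 of the 34 lower, against 10.2% of all genes; edgeR, DESeq2 and limma-voom called 0 higher, as did an unadjusted p under 0.05, against 5.53% of all genes. Leaving out single libraries gave 29 to 32. For Mcm3 the NRF2 effect was -0.044 with DMSO, a difference of -0.76 ± 0.08 (adjusted p = 5.0e-06). For Rrm2 it was 0.20 with DMSO, a difference of -1.19 ± 0.09 (adjusted p = 2.1e-07). The nucleotide list had 8 of 24 differences called lower, 14 without replicate 3 of NRF2 with DMSO and 5 without replicate 2 of EV with romidepsin. Both lines held less of the cell cycle list with romidepsin than with DMSO: its summed level with DMSO was 6114 to 6532 CPM in EV and 6125 to 6454 CPM in NRF2 libraries, ranges that overlapped.

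**Figure D4:**
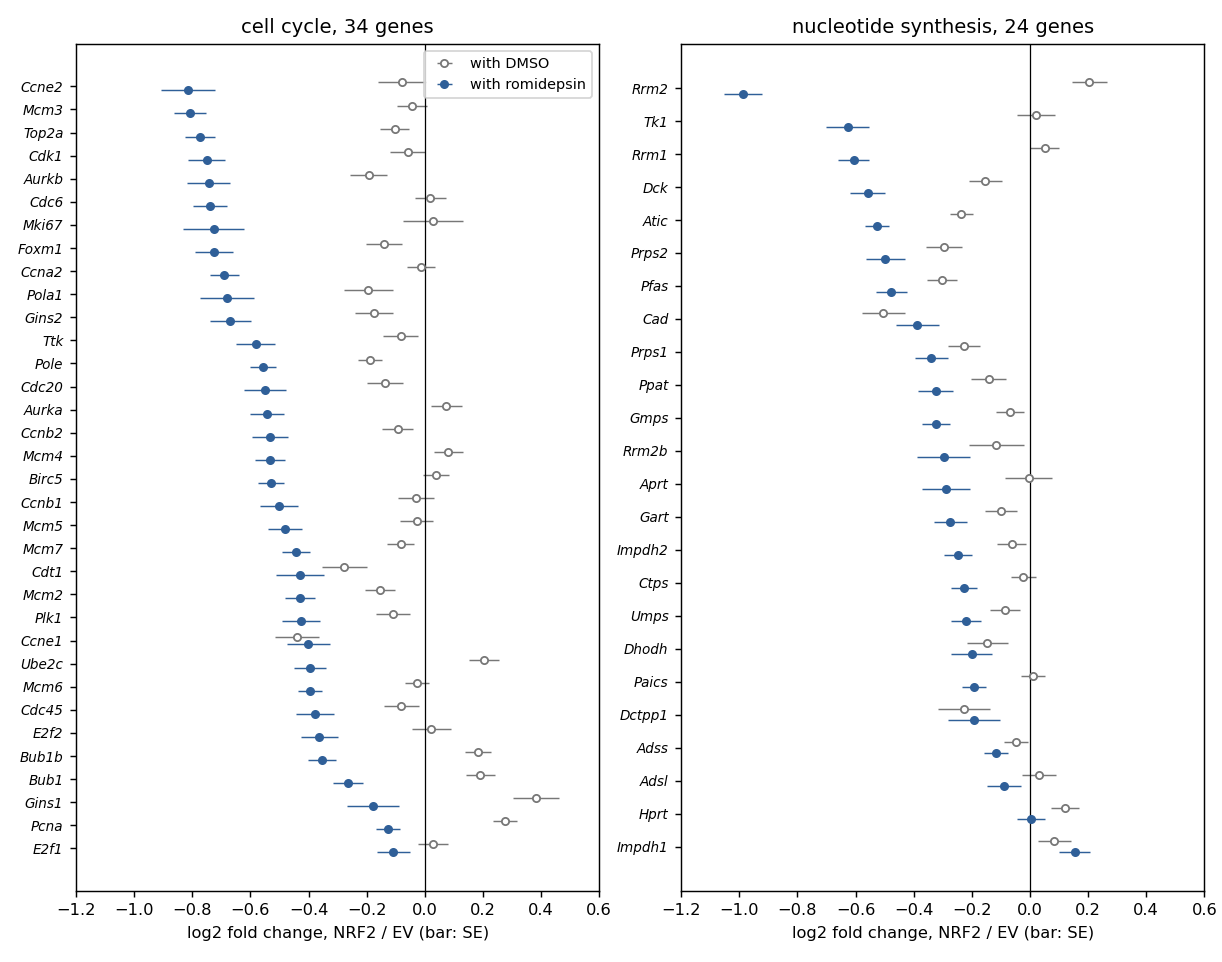
Log2 fold change of NRF2 over EV cells (horizontal axis; bars are 1 SE) for 34 cell cycle genes (left) and 24 nucleotide synthesis genes (right), with romidepsin (filled) and with DMSO (open), in order of the romidepsin value. Filled points of the cell cycle genes lie between -0.82 and -0.11, and open points between -0.44 and 0.38.

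Cyclins and their inhibitors outside that list moved less uniformly, 4 of 20 higher and 7 lower (4 lower without replicate 3 of NRF2 with romidepsin, and 7 higher where the 6 romidepsin libraries were fitted alone). Ccnd1, the cyclin that links growth signals to the cycle, measured 270.0, 278 and 258 CPM in EV and 162, 166 and 149 CPM in NRF2 libraries (log2 -0.76 ± 0.05, adjusted p = 2.7e-09). Rbl1, the retinoblastoma relative p107, fell (log2 -0.48 ± 0.05, adjusted p = 6.8e-07). The CDK inhibitor gene Cdkn1a rose from 42.2, 39.1 and 41.8 to 51.8, 53.3 and 57.6 CPM (1.32-fold, adjusted p = 4.4e-04), and Cdkn1c from 0.638, 0.496 and 0.189 to 1.40, 1.65 and 1.65 CPM (3.54-fold, adjusted p = 8.2e-04). Perp, a p53-induced membrane protein gene, rose 1.86-fold (adjusted p = 1.0e-10), the largest change among 15 p53 pathway genes of which 5 were higher and 4 lower; without replicate 2 of either romidepsin group these were 3 and 2.

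Genes of MYC and ribosome production were lower in 13 of 24 cases and higher in 4 (median log2 fold change -0.19). Dkc1, which modifies ribosomal RNA, measured 67.5, 67.7 and 66.1 CPM in EV and 48.7, 47.7 and 41.8 CPM in NRF2 libraries (log2 -0.54 ± 0.08, adjusted p = 8.8e-05). Nop56, a core protein of small nucleolar ribonucleoproteins, fell from 258, 271 and 254 to 186, 193 and 175 CPM (log2 -0.50 ± 0.05, adjusted p = 2.7e-07), and Polr1a, the large subunit of RNA polymerase I, by a log2 fold change of -0.51 ± 0.04 (adjusted p = 4.8e-08). Mxd1, a partner of MAX that opposes MYC, was among the 4 that rose (1.40-fold, adjusted p = 1.5e-04). Cytosolic ribosomal proteins showed few calls, 1 of 30 higher and 2 lower, though 7 and 5 without replicate 3 of NRF2 with DMSO, and 0 lower without replicate 2 of EV or replicate 3 of NRF2 with romidepsin. Proteasome subunits likewise had 4 of 27 higher and 3 lower, the latter 6 without that library and 1 without replicate 2 of EV or replicate 2 or 3 of NRF2 with romidepsin.

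Folding genes were lower more often than higher. Of 20 genes of the unfolded protein response, 8 were lower and 1 higher (3 higher without replicate 3 of NRF2 with DMSO, and 4 in the 6 romidepsin libraries alone). Herpud1, of endoplasmic reticulum degradation, fell from 26.9, 26.7 and 23.6 to 17.9, 18.5 and 16.5 CPM (log2 -0.54 ± 0.07, adjusted p = 1.0e-05). The resident chaperone gene Hsp90b1 fell from 428, 439 and 422 to 328, 314 and 314 CPM (log2 -0.43 ± 0.08, adjusted p = 3.2e-04). Of 21 chaperone genes, 7 were lower and 4 higher. The cytosolic HSP90 genes moved in opposite directions: the inducible Hsp90aa1 measured 2965, 2991 and 2953 CPM in EV and 4582, 4391 and 4450.4 CPM in NRF2 libraries (1.51-fold higher, adjusted p = 3.2e-07). The constitutive Hsp90ab1 measured 3990.0, 3966 and 3902 and 3319, 3325 and 3302 CPM (log2 -0.25 ± 0.06, adjusted p = 0.0012). Hspd1, the mitochondrial chaperonin gene, fell (log2 -0.51 ± 0.05, adjusted p = 6.7e-07), and the near-identical Hspa1a and Hspa1b, whose reads are divided with uncertainty, rose 2.11- and 1.49-fold (adjusted p = 5.5e-04 and 2.3e-07). In the stress programme of ATF4, the factor's own gene Atf4 fell from 165, 172 and 159 to 115, 120.1 and 123 CPM (log2 -0.47 ± 0.08, adjusted p = 1.5e-04), with its targets Nupr1 (log2 -0.68 ± 0.06, adjusted p = 2.4e-07) and Asns (log2 -0.41 ± 0.06, adjusted p = 1.9e-05). Of the 17 genes of that list 4 were lower and 2 higher, with 0 to 4 higher when single libraries were left out. The lower share was near the 22.4% of all genes tested, and the median log2 fold change was -0.016. Sesn2 was called higher (log2 0.27), a call lost without replicate 2 of EV or replicate 3 of NRF2 with romidepsin.

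Epithelial genes were higher in NRF2 cells in 11 of 22 cases and lower in 1, with a median log2 fold change of 0.60. Without replicate 1 or 3 of NRF2 with DMSO, 2 and 3 were lower. The basal keratin gene Krt5 measured 0.246, 0.406 and 0.283 CPM in EV and 5.98, 5.31 and 4.85 CPM in NRF2 libraries, 16.9-fold at low level (adjusted p = 5.6e-09). The simple epithelial keratin genes were abundant and rose less, Krt8 from 2069, 2076 and 2112 to 3345, 3408 and 3169.8 CPM (1.59-fold, adjusted p = 1.9e-08) and Krt18 from 2333, 2319 and 2355 to 3731, 3692 and 3599.9 CPM (1.57-fold, adjusted p = 4.7e-08). The junction genes Cldn3 and Epcam rose 4.07- and 2.01-fold from levels under 5 CPM (adjusted p = 1.9e-05 and 1.9e-05). Cdh1, the adhesion molecule E-cadherin, was the exception at 256, 247 and 235 CPM in EV and 230.0, 226 and 225 CPM in NRF2 libraries (log2 -0.12 ± 0.04, adjusted p = 0.033), and this call was lost without replicate 1 or 2 of EV or replicate 2 or 3 of NRF2 with romidepsin. Sprr2h, a small proline-rich protein gene of squamous epithelium, had the largest rise after Gsta1 among genes with symbols of known genes and a mean of at least 5 CPM, from 2.11, 2.79 and 2.50 to 32.4, 31.2 and 26.5 CPM (12.1-fold, adjusted p = 6.7e-12).

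Mesenchymal genes were lower in 11 of 17 cases and higher in 1 (median log2 fold change -0.19). Twist1, a transcription factor of mesenchymal transition, measured 8.59, 8.47 and 7.32 CPM in EV and 1.64, 1.12 and 2.11 CPM in NRF2 libraries. The groups did not approach each other (log2 -2.37 ± 0.16, adjusted p = 5.6e-09). Prrx1, a homeobox factor of mesenchyme, fell from 11.9, 11.8 and 12.04 to 6.55, 6.57 and 6.73 CPM (log2 -0.85 ± 0.08, adjusted p = 2.6e-07), and the chromatin protein gene Hmga2 from 223, 229 and 202 to 139, 141 and 136 CPM (log2 -0.65 ± 0.06, adjusted p = 1.4e-07). Vim, encoding the filament protein vimentin, was the most abundant gene that fell, from 6145, 6108 and 6068 to 5323, 5539 and 5183 CPM, by a log2 fold change of -0.19 ± 0.05 (adjusted p = 0.0044). The 1 member called higher was Zeb1 (log2 0.23 ± 0.07, adjusted p = 0.017), a call lost without replicate 1 of EV or replicate 2 of NRF2 with romidepsin.

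Matrix genes were among the strongest falls, although 13 of 29 were higher and 7 lower, with 4 in each direction by at least 2-fold. The median log2 fold change of the list was 0.15 and the highest 1.93, so the members named next show its falling side. Tnc (chr4:63959785-64047015), which encodes tenascin C, an extracellular glycoprotein of wounds and tumours, measured 98.3, 97.5 and 100.3 CPM in EV and 12.5, 11.8 and 12.3 CPM in NRF2 libraries. The 3 libraries of each group were within a few percent of one another and 8.10-fold apart (log2 -3.02 ± 0.06, adjusted p = 1.1e-16). Col11a1, a fibrillar collagen gene, fell from 51.1, 55.3 and 54.5 to 12.95, 15.2 and 14.4 CPM (log2 -1.92 ± 0.08, adjusted p = 8.8e-12). Smoc2, a matricellular protein gene, fell from 6.43, 5.81 and 6.61 to 0.748, 1.27 and 1.43 CPM (log2 -2.45 ± 0.18, adjusted p = 1.3e-08). Other strong falls were in adhesion and signalling genes. The protocadherin gene Pcdh18 fell from 9.23, 9.15 and 10.1 to 0.982, 1.195 and 1.25 CPM (log2 -3.05 ± 0.13, adjusted p = 1.5e-11), and Lhfp from 44.4, 41.7 and 42.9 to 8.23, 8.51 and 8.61 CPM (log2 -2.35 ± 0.08, adjusted p = 4.5e-13). Hmgn3, a nucleosome-binding protein gene, fell from 12.7, 11.4 and 11.1 to 2.38, 2.53 and 1.94 CPM (log2 -2.34 ± 0.12, adjusted p = 2.2e-10), and Gdnf, a neurotrophic factor gene, from 12.9, 12.2 and 14.5 to 2.90, 4.15 and 3.65 CPM (log2 -1.88 ± 0.13, adjusted p = 9.5e-09). The remaining members of the 15 largest falls were the cyclic AMP phosphodiesterase gene Pde4b (log2 -1.64 ± 0.12), the adhesion gene Vcam1 (log2 -1.51 ± 0.12), the metalloproteinase gene Adamts9 (log2 -1.35 ± 0.12), Zfp518b, Pik3r5, Cyfip2, Tigd2 and Clca3a1.

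The largest rises outside the antioxidant lists included tetraspanins and secreted proteins. Cd81, a tetraspanin of membrane microdomains, measured 6.63, 6.94 and 7.55 CPM in EV and 48.5, 48.3 and 45.6 CPM in NRF2 libraries (6.74-fold, adjusted p = 9.9e-13). Its relative Cd82, known as a suppressor of metastasis, went from 1.82, 1.53 and 1.65 to 10.9, 11.4 and 11.4 CPM (6.73-fold, adjusted p = 3.1e-11). The 2 tetraspanin genes thus rose by similar factors from low levels. Csn3, which encodes kappa-casein, went from 1.87, 1.40 and 1.60 to 11.4, 13.1 and 13.1 CPM (7.72-fold, adjusted p = 1.8e-09), and Tns1, a tensin that links integrins to actin, from 2.85, 2.25 and 2.69 to 14.2, 16.2 and 15.7 CPM (5.91-fold, adjusted p = 3.5e-10). Speg, Kcnn3, Plekhg6 and the metallothionein gene Mt3 rose 4.26-, 4.16-, 4.16- and 4.05-fold. Clu, the secreted chaperone clusterin, was by far the most abundant gene to rise 3-fold, from 1137, 1116 and 1273 to 3512, 3570.0 and 3524 CPM (3.01-fold, adjusted p = 6.5e-13).

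Glycolytic genes were higher in 11 of 23 cases and lower in 2 (6 lower without replicate 3 of NRF2 with DMSO). The aldolase gene Aldoc rose from 13.2, 11.4 and 14.7 to 34.1, 33.6 and 39.1 CPM (2.71-fold, adjusted p = 1.2e-08), Pfkm, muscle-type phosphofructokinase, 1.47-fold (adjusted p = 3.0e-07), and the lactate transporter gene Slc16a1 fell (log2 -0.28 ± 0.05, adjusted p = 2.6e-04). Of 19 hypoxia genes 7 were higher; edgeR, DESeq2 and limma-voom called 0 lower, with 1 lower at an unadjusted p under 0.05 and 2 called without replicate 3 of NRF2 with DMSO. Epas1, which encodes HIF-2 alpha, rose from 3.88, 3.52 and 3.54 to 11.6, 10.5 and 12.4 CPM (3.14-fold, adjusted p = 9.7e-07), with the HIF prolyl hydroxylase gene Egln3 (2.45-fold, adjusted p = 2.3e-08) and Ndrg1 (1.80-fold, adjusted p = 1.7e-06). Of 22 TCA cycle genes 5 were higher and 3 lower, beside 23.0% and 22.4% of all genes tested, with a median log2 fold change of 0.0041. When single libraries were left out, 3 to 7 were lower. Pyruvate carboxylase, which feeds the TCA cycle with oxaloacetate, is encoded by Pcx, and it measured 102, 99.1 and 104 CPM in EV and 197, 201 and 202 CPM in NRF2 libraries (1.96-fold, adjusted p = 1.8e-09). Another member, Suclg2, was called lower. Glutamine and aspartate genes were split, 7 of 22 higher and 6 lower (median log2 fold change -0.059). The glutamine synthetase gene Glul measured 167, 167 and 168 CPM in EV and 321, 316 and 309.8 CPM in NRF2 libraries (1.89-fold, adjusted p = 7.2e-11), while the glutamine importer gene Slc38a1 fell (log2 -0.70 ± 0.05, adjusted p = 2.5e-08). In the lipid list 4 of 25 genes were higher and 6 lower, with a median log2 fold change of -0.034. Fabp5, a fatty acid binding protein gene, had the largest fall of that list, from 69.2, 72.8 and 68.3 to 28.6, 31.7 and 30.5 CPM (log2 -1.21 ± 0.06, adjusted p = 1.5e-10). Acss2 was among the members that rose. Mitochondrially encoded respiratory genes had 0 of 13 called in either direction by edgeR, DESeq2 or limma-voom, and 0 at an unadjusted p under 0.05, with mt-Co1 at 12473, 13216 and 12471 CPM in EV and 12865, 12796 and 13486 CPM in NRF2 libraries; without replicate 3 of NRF2 with DMSO, 1 was higher and 4 lower.

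Lysosome and autophagy genes were higher in 16 of 31 cases and lower in 1 (0 to 2 lower when single libraries were left out), with a median log2 fold change of 0.16. The autophagy receptor gene Calcoco1 measured 90.2, 87.8 and 94.0 CPM in EV and 169, 179.9 and 186 CPM in NRF2 libraries (1.97-fold, adjusted p = 2.1e-09). The cathepsin gene Ctsb measured 213, 209.9 and 216 CPM in EV and 299, 303 and 311 CPM in NRF2 libraries (1.43-fold, adjusted p = 4.4e-08). The rises were modest, and Hexa and Map1lc3a gave 1.46- and 1.44-fold (adjusted p = 1.1e-04 and 1.3e-06). In polyamine metabolism the breakdown enzymes rose, Smox 1.42-fold (adjusted p = 3.2e-07) and Sat1 1.34-fold (adjusted p = 3.3e-06), while the spermidine synthase gene Srm fell from 74.4, 76.9 and 75.5 to 51.1, 52.0 and 43.7 CPM (log2 -0.62 ± 0.10, adjusted p = 1.6e-04).

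Signalling genes were divided within most lists. Of 23 MAPK pathway and feedback genes 4 were higher and 9 lower: the phosphatase genes Dusp4 and Dusp1 rose 1.59- and 1.47-fold (adjusted p = 5.6e-08 and 2.5e-07). The ligand gene Ereg fell from 47.8, 47.5 and 45.1 to 31.8, 30.3 and 26.5 CPM (log2 -0.66 ± 0.07, adjusted p = 9.7e-07), and the transcription factor gene Etv1 from 1.87, 2.03 and 1.94 to 0.374, 0.352 and 0.684 CPM (log2 -2.10 ± 0.26, adjusted p = 6.1e-06). Among receptor tyrosine kinases, 6 of 15 were higher and 3 lower (1 lower without replicate 2 of EV with romidepsin). Egfr measured 8.05, 7.80 and 8.92 CPM in EV and 16.2, 16.4 and 16.9 CPM in NRF2 libraries (1.998-fold, adjusted p = 1.2e-07), and Ret 9.77, 9.19 and 8.07 and 19.0, 19.3 and 17.6 CPM (2.07-fold, adjusted p = 4.0e-07). The more abundant Met fell instead, from 268, 263 and 253 to 209.8, 202 and 199.9 CPM (log2 -0.36 ± 0.04, adjusted p = 5.7e-06). Notch and Wnt genes were higher in 11 of 24 cases and lower in 3 (5 lower without replicate 3 of NRF2 with DMSO). Notch1 and Notch3 rose 3.05- and 2.31-fold from under 5 CPM (adjusted p = 1.1e-06 and 6.6e-06), and the ligand gene Jag1 fell (log2 -0.51 ± 0.09, adjusted p = 1.7e-04). TGF-beta and BMP genes were split, 7 of 22 higher and 6 lower, beside 23.0% and 22.4% of all genes tested (median log2 fold change -0.081). When single libraries were left out, 5 to 8 were lower. Of the members that fell, the BMP targets Id1 and Id3 are inhibitors of differentiation factors. Id1 fell from 84.9, 85.7 and 82.9 to 47.3, 48.4 and 42.3 CPM (log2 -0.87 ± 0.12, adjusted p = 1.2e-04) and Id3 by a log2 fold change of -1.08 ± 0.13 (adjusted p = 2.5e-05).

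Immune genes were mixed. The MHC class I list had 9 of 17 members higher and 2 lower (median log2 fold change 0.36); Psme2, a proteasome activator subunit of antigen processing, rose from 26.03, 25.1 and 25.8 to 43.7, 40.9 and 37.4 CPM (1.59-fold, adjusted p = 4.5e-05), and the peptide-trimming enzyme gene Erap1 fell (log2 -0.88 ± 0.15, adjusted p = 1.1e-04). Csf1, the growth factor of macrophages, was at 279, 281 and 287 CPM in EV and 151, 163 and 151 CPM in NRF2 libraries (log2 -0.86 ± 0.04, adjusted p = 9.6e-11). The alarmin gene Il33 rose from 2.65, 3.29 and 3.92 to 7.71, 8.19 and 8.50 CPM (2.47-fold, adjusted p = 8.0e-07), and Cxcl3, a neutrophil chemokine gene, fell (log2 -1.35 ± 0.28, adjusted p = 7.5e-04). The interferon-stimulated list, 5 of 23 higher and 6 lower, gave 1 to 6 higher and 2 to 7 lower when single libraries were left out, so its counts rest on single libraries; Ifit2 fell from 13.7, 15.1 and 15.6 to 7.29, 7.66 and 6.16 CPM (log2 -1.06 ± 0.11, adjusted p = 6.1e-07).

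Genes for chromatin-modifying enzymes and readers, and genes of the known response to histone deacetylase inhibitors, were also compared. No class I deacetylase, the class that romidepsin inhibits, is among the genes named from these lists. Of 30 genes for histone deacetylases, acetyltransferases and BET readers, 7 were higher and 7 lower, near the shares of all genes (11 lower where the 6 romidepsin libraries were fitted alone). Hdac11 rose from 35.6, 36.1 and 35.8 to 53.7, 49.6 and 51.5 CPM (1.44-fold, adjusted p = 6.0e-07), Hdac7 fell (log2 -0.34 ± 0.07, adjusted p = 3.8e-04), as did Dnmt1, the maintenance DNA methyltransferase gene (log2 -0.36 ± 0.05, adjusted p = 9.3e-06). Of 16 genes that HDAC inhibitors commonly induce, 8 were higher in NRF2 cells and 2 lower (1 lower without replicate 3 of either romidepsin group). Among 20 neuronal genes, which are often silent outside neurons, 12 were higher and 5 lower (median log2 fold change 0.38). The synaptic vesicle gene Syp rose from 5.94, 5.72 and 6.04 to 19.9, 18.5 and 17.3 CPM (3.14-fold, adjusted p = 9.5e-10), the adhesion gene Nrcam from 3.19, 3.92 and 3.73 to 10.1, 11.7 and 10.95 CPM (3.02-fold, adjusted p = 8.4e-09), and Gap43, of axon growth, fell from 8.79, 8.16 and 7.69 to 3.83, 3.30 and 3.88 CPM (log2 -1.17 ± 0.13, adjusted p = 1.3e-06).

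The NRF2 effect with romidepsin was next set beside that with DMSO, measured in 6 other libraries, where 2608 genes were higher (19.3%) and 2287 lower (16.9%), together 36.3%, and 518 were higher (3.84%) and 321 lower (2.38%) by at least 2-fold. Of the genes higher with romidepsin, 1685 were also higher with DMSO, 54.2% of the former and 64.6% of the latter. Of the genes lower with romidepsin, 1366 were also lower with DMSO, 45.1% and 59.7%. Another 62 were higher with romidepsin and lower with DMSO, and 108 the reverse. The test of the difference between the 2 effects, fitted on all 12 libraries, called 747 genes higher with romidepsin (5.53%) and 1380 lower (10.2%), together 15.8%. By at least 2-fold, 117 (0.867%) were higher and 130 (0.963%) lower. Without replicate 2 of EV with romidepsin 465 were higher, and without replicate 3 of NRF2 with DMSO 2127 were lower. Of 1360 genes called higher with romidepsin and in neither direction with DMSO, 238 had a called difference, and of 1552 called lower in this way, 625 had one.

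**Figure D5:**
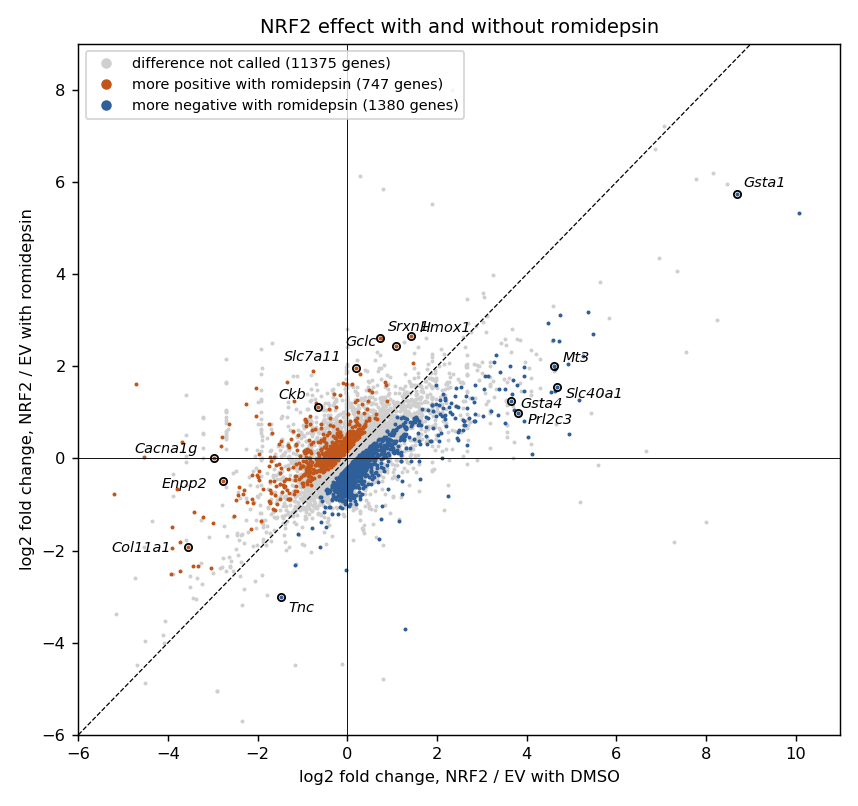
Log2 fold change of NRF2 over EV cells with romidepsin (vertical axis) against that with DMSO (horizontal axis), 1 point per gene tested; 14 genes lie outside the axes. Points above the dashed line of equal effect were more positive with romidepsin: Srxn1, Gclc, Slc7a11 and Ckb lie above it, and Gsta4, Mt3, Slc40a1 and Tnc below it.

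Several antioxidant genes had a larger NRF2 effect with romidepsin. Srxn1 differed between the lines by 0.73 with DMSO, where EV libraries held 44.97, 47.0 and 46.6 CPM and NRF2 libraries 76.2, 80.6 and 73.5 CPM, and the effect was 1.87 ± 0.07 larger with romidepsin (adjusted p = 1.4e-11). Slc7a11 differed by 0.20 with DMSO and 1.77 ± 0.09 more with romidepsin (adjusted p = 2.3e-09). Gclc gained 1.37 ± 0.08 (adjusted p = 3.6e-09) and Hmox1 1.25 ± 0.10 (adjusted p = 6.4e-07), and Sqstm1 and Fth1 gained 0.67 ± 0.09 and 0.59 ± 0.08 (adjusted p = 8.9e-05 and 9.1e-05). In the glutathione and thioredoxin list edgeR called 9 of 30 differences higher and 0 lower, beside 5.53% and 10.2% of all genes tested. At an unadjusted p under 0.05, 5 were lower, and DESeq2 called 2 lower and limma-voom 1. Without replicate 3 of NRF2 with DMSO, 6 were lower. Without replicate 3 of EV or replicate 1 or 2 of NRF2 with DMSO, or replicate 1 of NRF2 with romidepsin, 1 was lower.

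Detoxification genes went the other way in this comparison, with 11 of 33 differences called lower and 2 higher (7 lower without replicate 3 of EV with DMSO). Over all genes tested, 10.2% of differences were called lower and 5.53% higher. Gsta4 rose from 4.49, 2.90 and 4.36 CPM in EV to 49.5, 54.7 and 46.3 CPM in NRF2 libraries with DMSO, and its effect was -2.41 ± 0.12 with romidepsin relative to DMSO (adjusted p = 2.3e-09). Its level was nonetheless higher in all NRF2 libraries with romidepsin than in any with DMSO, and EV cells also held more of it with romidepsin. Blvrb had the same pattern, with 7.58, 8.70 and 7.52 CPM in EV and 37.3, 39.7 and 29.3 CPM in NRF2 libraries with DMSO and a difference of -1.32 ± 0.12 (adjusted p = 3.9e-06). Slc40a1 differed by -3.12 ± 0.33 (adjusted p = 8.3e-06). The proliferin gene Prl2c3, a placental hormone gene with near-identical copies, measured 4.17, 3.97 and 4.40 CPM in EV and 56.9, 60.7 and 59.7 CPM in NRF2 libraries with DMSO but 1.33, 1.67 and 2.17 and 3.18, 3.30 and 3.94 CPM with romidepsin. In that gene the high level of the NRF2 line with DMSO was not reached with romidepsin, a difference of -2.82 ± 0.19 (adjusted p = 7.2e-08). The S100 gene S100a7a and the cadherin gene Fat2 had differences of -2.03 ± 0.18 and -1.90 ± 0.19 (adjusted p = 1.1e-06 and 6.6e-06).

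Other genes held an NRF2 effect with DMSO that was smaller or opposite with romidepsin. The calcium channel gene Cacna1g was at 1.28, 2.01 and 1.39 CPM in EV and 0.197, 0.228 and 0.121 CPM in NRF2 libraries with DMSO, and at 23.6, 24.1 and 25.8 CPM in EV and 23.5, 25.9 and 24.4 CPM in NRF2 libraries with romidepsin. The lines overlapped with romidepsin (log2 0.0061 ± 0.09, adjusted p = 0.96), and the difference of effects was 2.98 ± 0.30 (adjusted p = 5.6e-06). Enpp2, which encodes the lysophospholipase autotaxin, remained lower in NRF2 cells with romidepsin (log2 -0.48 ± 0.09, adjusted p = 3.0e-04) but less so than with DMSO, a difference of 2.29 ± 0.21 (adjusted p = 1.7e-06). Ckb, brain-type creatine kinase, measured 133, 131 and 151 CPM in EV and 310.0, 314 and 280.3 CPM in NRF2 libraries (2.18-fold higher, adjusted p = 3.6e-08) but 6.25, 7.58 and 5.82 and 4.67, 4.26 and 3.15 CPM with DMSO. Its NRF2 effect thus had opposite directions under the 2 treatments, 1.79 ± 0.16 apart (adjusted p = 5.9e-06). The vitamin D receptor gene Vdr (1.82 ± 0.32, adjusted p = 8.4e-04; 2.46 without replicate 2 of NRF2 with DMSO), the calcium-binding protein gene Rcn3 (1.72 ± 0.22, adjusted p = 6.3e-05) and the tetraspanin gene Tspan13 (1.61 ± 0.38, adjusted p = 0.0074) were also lower in NRF2 cells with DMSO and higher with romidepsin. In the reverse direction, lower with romidepsin and higher with DMSO, were the multidrug transporter gene Abcb1a (-0.91 ± 0.12, adjusted p = 7.1e-05), the sialyltransferase gene St3gal6 (-0.86 ± 0.10, adjusted p = 3.6e-05), the splicing regulator gene Ptbp2 (-0.91 ± 0.13, adjusted p = 1.5e-04), Rasgrp3, an activator of RAS (-0.99 ± 0.13, adjusted p = 8.3e-05), and Tcim (-0.9995 ± 0.18, adjusted p = 0.0011). Tnc, lower in NRF2 cells under both treatments, differed more with romidepsin, by -1.55 ± 0.07 (adjusted p = 6.1e-10), whereas the fall of Col11a1 was smaller with romidepsin by 1.65 ± 0.14 (adjusted p = 7.8e-07).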

How the data were processed

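Poly-A RNA of KP1 cells carrying an empty vector or NRF2, treated with 5 nM romidepsin or DMSO for 16 h, was sequenced in 12 libraries, 3 per group. The deposited table holds estimated counts per gene symbol; per the submitters' processing notes, bcl2fastq 2.19, kallisto 0.44.0 and DESeq2 were used with GRCm38. The transcript set and how transcripts were summed to genes are not given in the sources used here. Reads of near-identical genes are divided by kallisto's estimate.

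Estimated counts were rounded to whole numbers and tested with edgeR 4.0.16 (R 4.3.3): filterByExpr, TMM scaling and robust quasi-likelihood fits of 4 group means over all 12 libraries, with 8 residual degrees of freedom, for NRF2 against EV with romidepsin, with DMSO, and for the difference of these effects. P-values were adjusted by Benjamini-Hochberg over 13502 genes, with calls under 0.05. SEs come from the log2 fold change and its F value, and fitted fold changes use a prior count of 0.125. CPM values are TMM-scaled. The floor of 3 counts covers counting error only. An exact permutation test of 3 against 3 libraries cannot go below p = 0.1, so it was not used for single genes. Gene identifiers and coordinates were matched by symbol to GENCODE M21 (GRCm38), and promoter windows to RefSeq, GRCm38.p6. The script was tested on simulated data. The values of 1 named gene are not reported here.

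Named genes were Nfe2l2 and Keap1; the 15 largest rises and falls with romidepsin among called, non-overlapping genes of at least 5 CPM, without predicted genes, RIKEN clones and pseudogenes; the 8 largest and smallest differences; the 6 genes most opposed between treatments in each direction; the 6 most abundant called genes in each direction; and up to 4 called members of each gene list plus the largest against the majority. Genes and lists were chosen with earlier results of these data known. Same-numbered libraries did not deviate together, so replicate numbers were not treated as pairs. Alternatives were other scalings (RLE, upper quartile, library size), DESeq2 1.42.0, limma-voom (limma 3.58.1), a filter of 1 CPM in 3 libraries or none, the compared groups alone, a replicate block, an adjusted p under 0.01, and each library left out.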

Additional observations from a re-analysis of the deposited data

Results flagged for a closer look

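For 58 of the 83 genes considered, the NRF2 effect with romidepsin differed from that with DMSO by edgeR's test of the difference itself (adjusted p under 0.05), 22 in the positive and 36 in the negative direction, beside 15.8% of all genes tested. The 83 include genes chosen for the size of this difference, so the count is a description and nothing is read from it. Values below are log2 differences, romidepsin minus DMSO. Among redox and iron genes the difference was 1.87 for Srxn1, 1.77 for Slc7a11, 1.37 for Gclc, 1.25 for Hmox1, 0.67 for Sqstm1, 0.59 for Fth1, 0.59 for Oplah and 0.17 for Nfe2l1. The thioredoxin-domain gene Txndc16 had 0.97 and the glycerol phosphate dehydrogenase homologue Gpd1l 0.69. Other positive values were 2.98 for Cacna1g, 2.43 for Cyfip2, 2.29 for Enpp2, 1.82 for Vdr, 1.79 for Ckb, 1.76 for Tgfbi, 1.72 for Rcn3, 1.65 for Col11a1, 1.61 for Tspan13, 0.99 for Hmgn3, 0.66 for Rps6ka6 and 0.58 for Adamts9. Tgfbi, Cyfip2, Enpp2, Col11a1, Hmgn3, Rps6ka6, Adamts9 and Nfe2l1 had lower levels in NRF2 cells under both treatments, so their positive values stand for a smaller gap with romidepsin. The call was lost in some alternative for Oplah, Nfe2l1, Adamts9, Rps6ka6 and Hmgn3, including a replicate block for the first 3 and leaving out a single library for all 5. Cyfip2 had 3.52 without replicate 1 and 1.78 without replicate 2 of NRF2 with DMSO, and Vdr 2.46 without the latter.

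Negative differences included detoxification, haem and iron genes, -2.94 for Gsta1, -2.41 for Gsta4, -1.32 for Blvrb, -3.12 for Slc40a1 and -0.22 for Tfrc. They covered replication and nucleotide genes, -1.19 for Rrm2, -0.76 for Mcm3, -0.74 for Ccne2, -0.69 for Cdk1, -0.67 for Top2a, -0.66 for Rrm1, -0.65 for Tk1 and -0.40 for Dck. Placental, casein and squamous genes had -3.17 for Prl2c2, -2.82 for Prl2c3, -1.53 for Csn3 and -2.03 for S100a7a. Further values were -2.03 for Tns1, -1.90 for Fat2, -1.55 for Tnc, -0.72 for Vcam1, -0.91 for Abcb1a, -2.00 for Entpd3, -0.79 for Clca3a1 and -2.59 for the metallothionein gene Mt3. The remaining values were -1.17 for Speg, -1.04 for Rnf183, -0.9995 for Tcim, -0.99 for Rasgrp3, -0.91 for Ptbp2, -0.86 for St3gal6, -0.57 for Ptma, -0.55 for Pde4b, -0.30 for Actb, -0.24 for Hmga1 and -0.24 for Hsp90ab1. Gsta1 had -7.45 without replicate 3 of EV with DMSO and -2.27 (edgeR adjusted p = 0.125, no longer called) without replicate 1 of EV with romidepsin. Mt3 had -3.30 and Tns1 -2.75 without replicate 2 of EV with DMSO, Csn3 -2.15 without replicate 1 of EV with DMSO, and Prl2c2 -3.77 without replicate 1 of NRF2 with romidepsin. The call was lost when some single library was left out for Gsta1, Csn3, Tfrc, Speg, Pde4b, Hmga1 and Hsp90ab1, and with a replicate block for Gsta1 and Hsp90ab1.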

How the results depend on the processing

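The counts of genes called higher or lower with romidepsin stayed within 1.5 times their values under every alternative run. No called value of a named gene changed direction. The balance of higher and lower members within a list was not tested in this way, and in some lists it depended on single libraries. Leaving out 1 library gave 2553 to 3477 higher and 2508 to 3882 lower genes with romidepsin, 513 to 591 and 196 to 230 at least 2-fold. With DMSO these ranges were 2244 to 3089 and 1865 to 2717, with 475 to 531 and 311 to 360 at least 2-fold. For the difference they were 465 to 921 higher and 959 to 2127 lower, with 90 to 141 and 107 to 150 at least 2-fold, the extremes being 465 higher without replicate 2 of EV with romidepsin and 2127 lower without replicate 3 of NRF2 with DMSO. At an adjusted p under 0.01 the DMSO comparison had 1503 lower genes and the difference 309 higher and 741 lower, 64 and 79 of them at least 2-fold. Scaling by library size alone gave 2914 higher and 3233 lower with romidepsin. A replicate block gave 2945 and 2903 genes with romidepsin, 2507 and 2129 with DMSO and 637 and 1221 for the difference; the labels' numbers did not pair the libraries, as the correlations of same-numbered deviations from the group means were -0.059, -0.035 and -0.075 with romidepsin. Of 268 values of named genes with romidepsin 42 changed call in some alternative, and of 126 differences 34 did. Depth limits genes near the level of 3 counts, where fold changes rest on single counts; the cause of the changes was not tested.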

Other observations

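A small set of genes, chosen after their values were seen, had no count in all 3 romidepsin libraries of one line and more than 3 counts in the other. Of 20 such genes 11 were called by edgeR, 7 without a count in NRF2 cells and 4 without a count in EV cells, and all 11 were called in the same direction with DMSO. Adgrl4, an adhesion receptor gene, had 223 counts over the EV libraries and 0 over the NRF2 libraries with romidepsin, at least 78.6-fold lower when 3 counts over the group are taken as the floor (adjusted p = 3.1e-08). With DMSO its counts were 203 in EV and 0 in NRF2 cells. The same pattern held for Tecrl (64 and 0 counts with romidepsin, 93 and 0 with DMSO), the oxysterol hydroxylase gene Cyp7b1 (59 and 0, 68 and 0), the ephrin receptor gene Epha6 (49 and 0, 43 and 0) and the albumin gene Alb (29 and 0, 40 and 0). In the other direction, the somatostatin receptor gene Sstr5 had 0 counts in EV and 59 in NRF2 cells with romidepsin, at least 18.6-fold higher, and 0 and 49 with DMSO. Clec4d, a lectin receptor gene, had 0 and 41 counts with romidepsin and 0 and 43 with DMSO. Mb21d2 had 0 and 26 with romidepsin and 0 and 82 with DMSO, and the ferroxidase gene Heph 0 and 24, and 0 and 130. The cause of these patterns was not tested.

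Annexin and S100 genes, which encode calcium-binding proteins of membranes and the cytoplasm, were higher in 8 of 20 cases and lower in 3 with romidepsin (5 lower without replicate 3 of NRF2 with DMSO), and higher in 12 and lower in 2 with DMSO, where 19.3% of all genes tested were higher and 16.9% lower. The difference of effects was called lower for 9 of them and higher for 1, beside 10.2% and 5.53% of all genes tested. Anxa10, an annexin of stomach epithelium, measured 0.835, 1.53 and 1.37 CPM in EV and 5.52, 4.46 and 5.42 CPM in NRF2 libraries with romidepsin (4.05-fold, adjusted p = 1.6e-06), and S100a4, associated with motile cells, fell from 32.7, 35.3 and 32.6 to 21.3, 19.0 and 15.97 CPM (log2 -0.83 ± 0.08, adjusted p = 3.7e-07). In urea cycle and arginine metabolism, the argininosuccinate synthase gene Ass1 rose from 0.344, 0.541 and 0.189 to 1.36, 1.41 and 1.03 CPM (3.51-fold, adjusted p = 0.0019) and the arginase gene Arg2 1.79-fold (adjusted p = 3.4e-05).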
